A study of Rattus norvegicus with 2 samples.

Results

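The antifibrotic miR-29 family was examined in small RNA libraries from exosomes of neonatal rat cardiomyocytes. The rows of the deposited count table named for miR-29a, miR-29b or miR-29c were taken, whichever arm of the hairpin they came from, and 5 of the 635 rows met this rule. These are mmu-miR-29a-3p, mmu-miR-29b-3p, mmu-miR-29c-3p, mmu-miR-29b-1-5p and mmu-miR-29c-5p, written below without the mouse prefix that the table gives them. The primary cells came from hearts of Wistar rats aged 1 to 2 days and were enriched for cardiomyocytes by differential adhesion and grown in medium containing BrdU, which holds back dividing cells. After serum starvation, exosomes were taken from normal cells kept for 48 h with no angiotensin II (NC-Exo) and from hypertrophic cells given 1 μmol/L of this hormone, Ang II, which enlarges cardiomyocytes (HC-Exo). Each condition had 1 library, so differences between the exosome types have no replicate check, and every test compares these libraries rather than the conditions.

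The 3 guide members of the family, the 3p arms, share the seed by which a miRNA recognises its target mRNAs. In heart and other organs miR-29 is known for repressing mRNAs of the extracellular matrix, such as those of collagens, fibrillin and elastin, and for being lowered by TGF-β in fibroblasts, which is why it is called antifibrotic. It is made from a pair of gene clusters, and a cell can release part of it in exosomes.

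The mature sequences, from the RefSeq annotation of the rat assembly GRCr8, are given because the members differ from each other by so few bases. The capitals mark the seed, bases 2 to 8 from the 5′ end. The 3p arms are:
rno-miR-29a-3p: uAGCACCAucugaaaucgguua
rno-miR-29b-3p: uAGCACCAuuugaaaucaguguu
rno-miR-29c-3p: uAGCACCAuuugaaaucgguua
All 3 carry the seed AGCACCA, and they were the only ones of the 693 mature rat miRNA names in that annotation to do so (0.433%). Counted from the 5′ end, miR-29a-3p and miR-29c-3p differ at 1 position, C10U. From miR-29c-3p to miR-29b-3p there are 3 differences, G18A, U21G and A22U, and miR-29b-3p is longer by 1 base. The first 17 bases of miR-29b-3p and miR-29c-3p are therefore identical. The distinct 3′ end of miR-29b is known from other work to carry a signal that brings it into the nucleus.

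The hairpins lie in 2 clusters. Mir29a (chr4:60617955-60618042) and Mir29b1 (chr4:60618334-60618414) are on the minus strand of GRCr8 with 291 bases between them. Mir29b2 (chr13:109098831-109098911) and Mir29c (chr13:109099359-109099446) are on the plus strand with 447 bases between them. Mature miR-29b-3p is the same from Mir29b1 and Mir29b2, so its reads cannot be assigned to a cluster. The 5p arms of the hairpins differ, and each of the 4 has a seed of its own that no other mature rat miRNA in the annotation shares:
rno-miR-29a-5p: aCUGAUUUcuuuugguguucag
rno-miR-29b-1-5p: uUUCAUAUggugguuuagauuu
rno-miR-29b-5p: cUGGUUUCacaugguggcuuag
rno-miR-29c-5p: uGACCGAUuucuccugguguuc
Here rno-miR-29b-5p is the 5p arm of Mir29b2. Rows matched the 5p arms of Mir29b1 and Mir29c. No row was named for the other two.

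The counts of all rows summed to 102608 (NC-Exo) and 133155 (HC-Exo), and these sums were taken as the miRNA reads of each library. Levels are given in RPM, the reads on a row per 1000000 miRNA reads. Some rows repeat the counts of another row. For example, the counts of miR-669o-3p, 274 (NC-Exo) and 248 (HC-Exo), are those of miR-669a-3p as well. A read may thus have been counted on several rows, and the sums may hold such repeats. Each read was worth 9.75 RPM in NC-Exo but 7.51 RPM in HC-Exo. RPM are shares, so exosomes of more cells of a type and more of a miRNA released by each cell cannot be told apart. The 7 listed muscle miRNAs all had reads and together made up 168954 RPM in NC-Exo against 184327 RPM in HC-Exo. Those of mesenchymal cells (6 of 6 with reads) summed to 38379 and 39390 RPM, and those of endothelium (2 of 2) to 91114 and 66817 RPM. Of 6 blood miRNAs 5 had reads, summing to 7095 and 7728 RPM, and miR-144-3p had no row. A single row supplied most of the muscle, endothelial and blood sums. These rows were miR-1a-3p (161917 and 174766 RPM), miR-126a-5p (86494 and 61470 RPM) and miR-486a-5p (6374 and 6571 RPM). The sums of these lists therefore mainly follow a single miRNA each. Among the other blood miRNAs, miR-451a stood at 166 and 263 RPM and miR-223-3p at 419 and 706 RPM. How much these other cell types contributed to the miR-29 reads was not tested.

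In both libraries miR-29a-3p was the most abundant member. It had 104 reads in NC-Exo against 172 in HC-Exo, which is a level of 1014 RPM (828 to 1228, 95% Clopper-Pearson) and 1292 RPM (1106 to 1500). It ranked 85 and 82 of the 635 rows. PCR copies of a molecule are counted as separate reads, so the intervals cover counting error only.

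The second member in rank was miR-29c-3p. It had 57 reads in NC-Exo against 65 in HC-Exo, which is 556 RPM (421 to 720) and 488 RPM (377 to 622). This was the only 3p member whose level was lower in HC-Exo, and the intervals overlapped over most of their length.

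The least abundant 3p member was miR-29b-3p, with 18 reads in NC-Exo against 47 in HC-Exo. Its level was 175 RPM (104 to 277) in NC-Exo and 353 RPM (259 to 469) in HC-Exo. Its rank moved from 196 to 152 of the 635 rows, and its intervals overlapped only from 259 to 277 RPM.

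**Figure D1:**
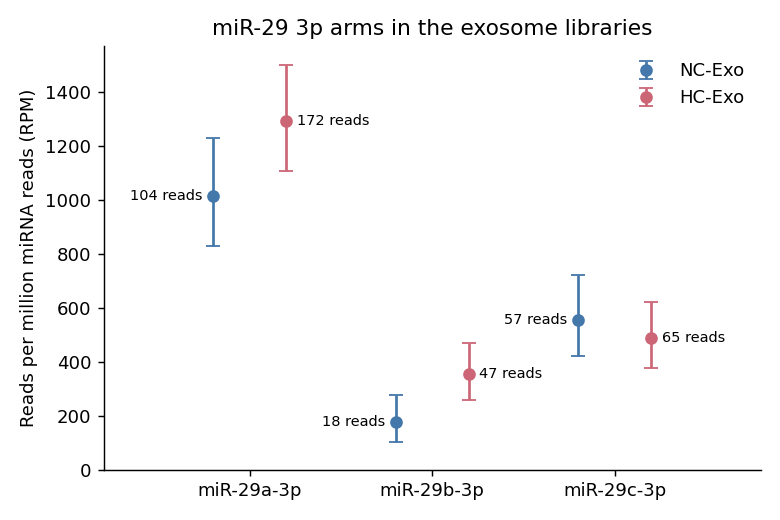
Level of the miR-29 3p arms in RPM (vertical axis) in NC-Exo (blue) and HC-Exo (red), with the reads counted written beside each point and 95% Clopper-Pearson intervals as bars. The levels of miR-29a-3p and miR-29b-3p are higher in HC-Exo and that of miR-29c-3p is slightly lower, with overlapping intervals for all 3.

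The order of levels was the same in both libraries, but its lower step was not equally clear. In NC-Exo miR-29a-3p had 1.82 times the reads of miR-29c-3p (95% interval from the exact binomial share 1.31 to 2.57), and miR-29c-3p had 3.17 times those of miR-29b-3p (1.84 to 5.72). In HC-Exo the first step was 2.65-fold (1.98 to 3.58). The step from miR-29c-3p to miR-29b-3p was only 1.38-fold in HC-Exo, and its interval of 0.936 to 2.06 included equal levels. These arms have nearly the same length, but ligation and PCR can favour one sequence over another, so the steps compare reads rather than molecules.

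Each row was compared between the libraries by a two-sided exact binomial test of its reads, given the sum of both libraries and the library totals. The test was run on the 340 rows with at least 10 reads over both libraries, with Benjamini-Hochberg adjustment over all of them. All 3 of the 3p rows of miR-29 were tested, and both 5p rows were below the minimum. Rows with an adjusted p-value under 0.05 were called, and 22.4% of all tested rows were called. Rows that repeat the counts of another row were each tested, so they entered the adjustment as well as these percentages. Of rows with 50 to 300 reads over both libraries, the depth of the miR-29 rows, 17.9% were called. None of the 3 miR-29 rows was called by the exact binomial test, and 1 of them, miR-29b-3p, was under 0.05 in its unadjusted p-value. Under a further limit of 1 on the size of the log2 ratio, 4.71% of all tested rows and again none of miR-29 were called. When a biological coefficient of variation of 0.1, 0.2 or 0.4 was assumed, edgeR's exact test also called 0 of them, and called 0 of the 340 rows in all.

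For miR-29b-3p the HC-Exo over NC-Exo ratio was 2.01 (95% interval from the exact binomial share 1.15 to 3.68), a log2 ratio of 1.01 with an adjusted p = 0.0508 from the exact binomial test. This is just outside the threshold. The repeated rows count among the 340 tests, and an adjustment with each of them taken only once was not run. At a value this close to the threshold, the call may depend on that choice. When only rows with at least 10 reads in each library were tested, 247 rows in all, 28.7% of them were called. The adjusted p-value of miR-29b-3p was then 0.0429 by the exact binomial test, and it was called. Over its other alternatives the adjusted p-value ran from 0.0537 to 1. Its log2 ratio ranked 38 of the 340 tested rows and 5 of the 112 rows with 50 to 300 reads.

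For miR-29a-3p the ratio was 1.27 (0.993 to 1.64), a log2 ratio of 0.35 (exact binomial test, adjusted p = 0.160). For miR-29c-3p it was 0.879 (0.606 to 1.28), a log2 ratio of -0.19 (exact binomial test, adjusted p = 0.729). The median log2 ratio of all 340 tested rows was 0.10, with quartiles of -0.27 and 0.53. The values of miR-29a-3p and miR-29c-3p both lay between these quartiles, and that of miR-29b-3p lay above them.

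The depth sets what the test could have called. With its 276 reads over both libraries, miR-29a-3p would have been called from a log2 ratio of 0.46 upwards or -0.46 downwards. The limits were 0.71 and -0.71 for miR-29c-3p with 122 reads, and 1.12 and -0.96 for miR-29b-3p with 65 reads. With the same 65 reads, miR-29b-3p would have passed had they fallen as 17 to NC-Exo and 48 to HC-Exo. These limits hold for the adjustment over 340 rows. In the test of 247 rows, miR-29b-3p was called at a log2 ratio of 1.01, below its limit of 1.12.

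**Figure D2:**
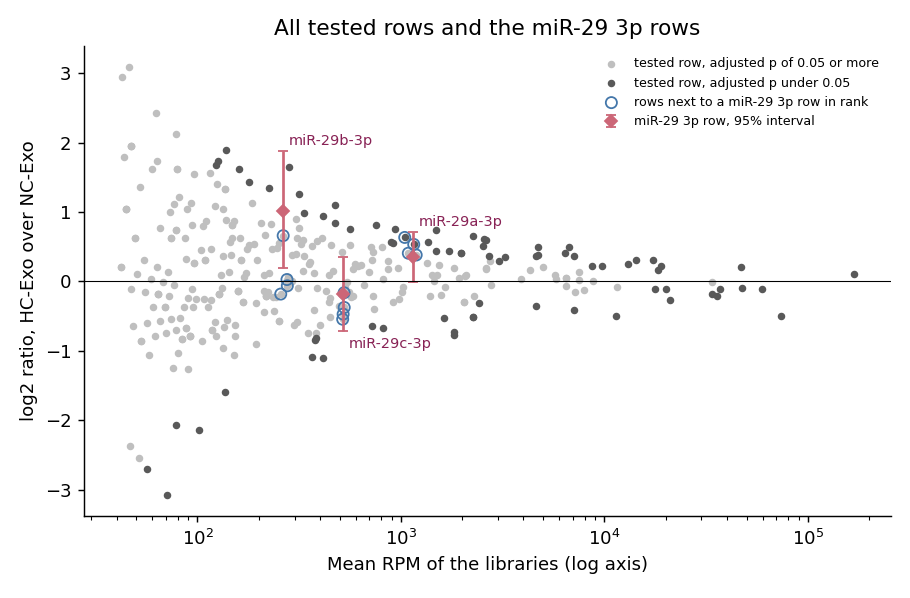
The HC-Exo over NC-Exo log2 ratio (vertical axis) of the 340 tested rows against their mean level in RPM (horizontal log axis), with rows of adjusted p under 0.05 in dark grey and the others in light grey. The miR-29 3p rows are red diamonds with 95% intervals that cover counting error only, and blue rings are the rows ranked next to them. All 3 diamonds lie among rows of similar level, with miR-29b-3p near the upper edge.

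The rows next to each member in rank by mean RPM, 2 above and 2 below it, show what rows of the same depth did. Next to miR-29a-3p were miR-676-3p, miR-17-5p, miR-409-3p and miR-532-5p, all with higher shares in HC-Exo and log2 ratios from 0.38 to 0.63. Of these, miR-17-5p, a member of a cluster known for promoting proliferation, with 97 and 182 reads (exact binomial test, adjusted p = 0.0186) and miR-532-5p with 84 and 169 reads (exact binomial test, adjusted p = 0.00697) were called. Next to miR-29c-3p were miR-541-5p, miR-208b-3p, miR-706 and miR-351-3p, with log2 ratios from -0.55 to -0.16 and no call. Among them miR-208b-3p, which is encoded within a myosin heavy chain gene, had 57 reads in NC-Exo against 66 in HC-Exo, almost the counts of miR-29c-3p. Next to miR-29b-3p were miR-495-3p, miR-350-3p, miR-24-2-5p and miR-669c-5p, with log2 ratios from -0.18 to 0.66 and no call. All 4 had a smaller log2 ratio than miR-29b-3p.

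All 3p reads of the family together numbered 179 in NC-Exo and 284 in HC-Exo. This was 0.174% of all NC-Exo miRNA reads and 0.213% of those of HC-Exo, or 1.22 times as much (95% binomial interval 1.01 to 1.48). On the log2 scale the sum was 0.29 higher in HC-Exo (0.02 to 0.57). The lower end of this interval is close to 0, and it fell below 0 under each of the 4 other scalings, to between -0.11 and -0.01.

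The mix of members within the family does not depend on how the libraries are scaled. Of the 3p reads, miR-29a-3p took 58.1% in NC-Exo (50.5 to 65.4%, 95% Clopper-Pearson) and 60.6% in HC-Exo (54.6 to 66.3%). The share of miR-29c-3p was 31.8% (25.1 to 39.2%) and 22.9% (18.1 to 28.2%), and that of miR-29b-3p was 10.1% (6.07 to 15.4%) and 16.5% (12.4 to 21.4%). Thus miR-29a-3p supplied over 50% of the reads in both libraries, while the shares of the other members stood closer to each other in HC-Exo. Each share was compared with the rest of the 3p reads by Fisher's exact test, with adjustment over all 3 members. None passed the threshold, with an adjusted p = 0.0823 for both miR-29b-3p and miR-29c-3p and 0.627 for miR-29a-3p (Fisher's exact test).

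**Figure D3:**
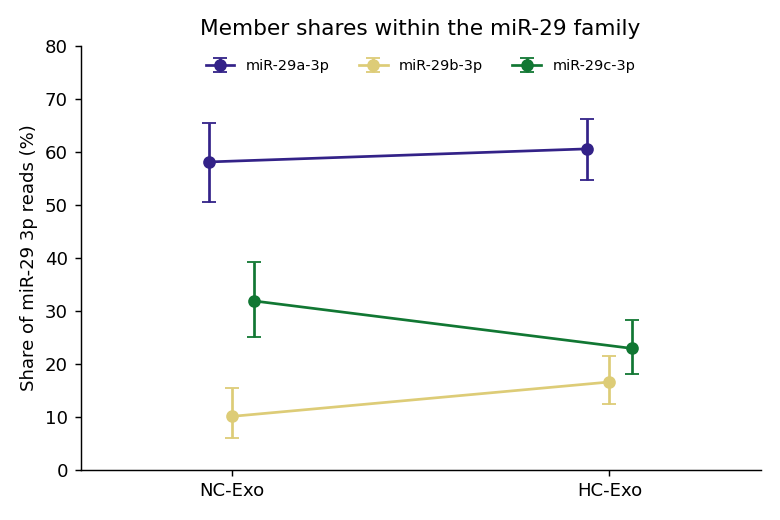
Share of the miR-29 3p reads in percent (vertical axis) taken by each member in NC-Exo (179 reads) and HC-Exo (284 reads), with 95% Clopper-Pearson intervals as bars and lines joining the same member. The share of miR-29a-3p is near 60% in both, that of miR-29c-3p goes from 31.8 to 22.9% and that of miR-29b-3p from 10.1 to 16.5%.

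The log2 ratios of the members were also compared in 3 pairs. That of miR-29b-3p was 1.20 above that of miR-29c-3p (95% interval 0.20 to 2.22, Fisher's exact test, adjusted p = 0.0376 over the 3 pairs). The adjusted p-value was 0.0752 when the 3 comparisons of shares, made on the same reads, were counted with the pairs, a setting chosen after the values were seen. The miR-29a-3p ratio differed from that of miR-29c-3p by 0.54 (-0.12 to 1.19, Fisher's exact test, adjusted p = 0.146), and miR-29b-3p from miR-29a-3p by 0.66 (-0.24 to 1.61, Fisher's exact test, adjusted p = 0.151). These intervals include both no difference and differences of more than 2-fold. Fisher's test counts reads and allows for no spread between cultures.

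The distinction between these rows rests on few bases, as the printed sequences show. A read of miR-29b-3p or miR-29c-3p that ends within the first 17 bases holds none of the positions that separate them, and miR-29a-3p and miR-29c-3p are separated by position 10 alone. The read lengths and the number of mismatches allowed in mapping are not given in the sources used here. Some closely named rows hold identical counts: miR-101b-3p repeats the 12 (NC-Exo) and 9 (HC-Exo) of miR-101a-3p. Whether reads of a miR-29 member were also, or only, counted under another member's name was not tested. The comparisons of shares and of pairs treat every read as belonging to a single row. With miR-29a-3p and miR-29c-3p summed, the log2 ratio of miR-29b-3p was 0.83 above theirs (-0.05 to 1.75), and with miR-29b-3p and miR-29c-3p summed, that of miR-29a-3p was 0.15 above theirs (-0.43 to 0.72).

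The passenger arms were barely seen. In NC-Exo 0 reads were counted on either 5p row, which allows up to 3 reads or 29.2 RPM for each and up to 1.68% of the family's reads for both. In HC-Exo miR-29b-1-5p had 1 read and miR-29c-5p had 2 reads, at 7.51 RPM a read. Both counts in HC-Exo are within the floor of 3 reads, so no fold was formed. The 3p share of the miR-29 reads was 100% in NC-Exo (98.0 to 100%, 95% Clopper-Pearson) and 99.0% in HC-Exo (97.0 to 99.8%), and the difference was not past the threshold (p = 0.289, Fisher's exact test). The single read of miR-29b-1-5p is the only one that belongs to Mir29b1 by name, too few to say from which cluster the miR-29b-3p reads came.

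Over both libraries the 5p arms made up 3 of 466 miR-29 reads (0.644%), but 276 of these reads were of miR-29a, which has no 5p row. On the rows of miR-29b and miR-29c alone the 5p arms made up 3 of 190 reads (1.58%). The miR-29b-3p reads among them may come partly from Mir29b2, whose 5p arm has no row, so this share may be too low. For comparison, 79 hairpins had a row for each arm and at least 100 reads in all, and their less abundant arm took a median of 4.90% of the reads, with quartiles of 1.23 and 12.8%. A lower share than the 1.58% of miR-29b and miR-29c was found in 25 of the 79, so it lay between these quartiles.

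Other guide families linked to the same tissue were set beside miR-29. The miR-26 family (miR-26a-5p and miR-26b-5p) went from 49 reads in NC-Exo to 106 in HC-Exo, for a log2 ratio of 0.74 (0.24 to 1.26). The 5 members of the miR-30 family had 653 and 942 reads, a log2 ratio of 0.15 (0.01 to 0.30). The muscle family miR-133 (miR-133a-3p and miR-133b-3p) had 632 and 1091 reads, a log2 ratio of 0.41 (0.27 to 0.56). By reads, miR-29 stood above miR-26 and well below miR-30 and miR-133 in both libraries.

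The ratio of the miR-29 3p sum was not separable from that of any of these families by Fisher's exact test, with adjustment over 3 such comparisons. Against miR-26 the difference in log2 ratio was -0.45 (95% interval -1.04 to 0.13, Fisher's exact test, adjusted p = 0.373). Against miR-30 it was 0.14 (-0.18 to 0.45), and against miR-133 it was -0.12 (-0.43 to 0.19), both with an adjusted p = 0.448 (Fisher's exact test). The intervals bound the difference from miR-30 and miR-133 to less than 0.46 in size, whereas for miR-26 a gap of up to 1.04 remained possible.

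Among 5 miRNAs described as lowering fibrosis, 2 were called, both higher in HC-Exo, against 13.8% of all tested rows called higher. These were miR-133a-3p, which targets connective tissue growth factor, with 417 and 694 reads and a log2 ratio of 0.36 (exact binomial test, adjusted p = 0.000636), and miR-24-3p, with 4466 and 6675 reads and a log2 ratio of 0.20 (exact binomial test, adjusted p = 1.94e-11). The other members had log2 ratios of 0.17 for miR-30c-5p, 0.60 for miR-26a-5p and -0.79 for miR-101a-3p, the last on 12 and 9 reads. The median log2 ratio of this list was 0.20, against 0.10 over all tested rows.

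Among 5 miRNAs described as raising fibrosis, 2 were also called higher in HC-Exo, but neither under upper-quartile scaling. These were miR-21a-5p, which is known for its increase in fibroblasts of the failing heart, with 1784 and 2588 reads and a log2 ratio of 0.16 (exact binomial test, adjusted p = 0.00300), and miR-125b-5p, with 922 and 1390 reads and a log2 ratio of 0.22 (exact binomial test, adjusted p = 0.00389). Those not called were miR-34a-5p at 0.31, miR-433-3p at 1.08 and miR-503-5p at 0.79, and the median of the list was 0.31. The calls in both lists were of rows deeper than any miR-29 row, and their log2 ratios were below the 0.46 that miR-29a-3p would have needed.

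In the cell type lists, 5 of 7 muscle miRNAs were called higher in HC-Exo, with a median log2 ratio of 0.51, against 13.8% of all tested rows called higher and 8.53% called lower. Under upper-quartile scaling 3 of the 7 were called. The deepest of these rows, miR-1a-3p with 16614 and 23271 reads, was called at a log2 ratio of only 0.11. Upper-quartile scaling shifted every log2 ratio by -0.12, which takes that of miR-1a-3p below 0. Those not called were miR-208a-3p at 1.04 and miR-208b-3p at -0.16. Of the 6 mesenchymal miRNAs 4 were called higher and 1, miR-214-3p, lower, with a median of 0.36. The 2 endothelial miRNAs, arms of the same hairpin, went opposite ways. The log2 ratio of miR-126a-5p was -0.49 and it was called lower, while that of miR-126a-3p, with 474 and 712 reads, was 0.21 (0.04 to 0.38, exact binomial test, adjusted p = 0.0572), so the lower sum of this list came from the 5p arm. Of 4 blood miRNAs tested miR-223-3p was called higher, but not under upper-quartile scaling, and the median was 0.61. The medians of the muscle, mesenchymal and blood lists all lay between the log2 ratios of miR-29a-3p and miR-29b-3p. That of the endothelial list, -0.14, lay between those of miR-29c-3p and miR-29a-3p.

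**Figure D4:**
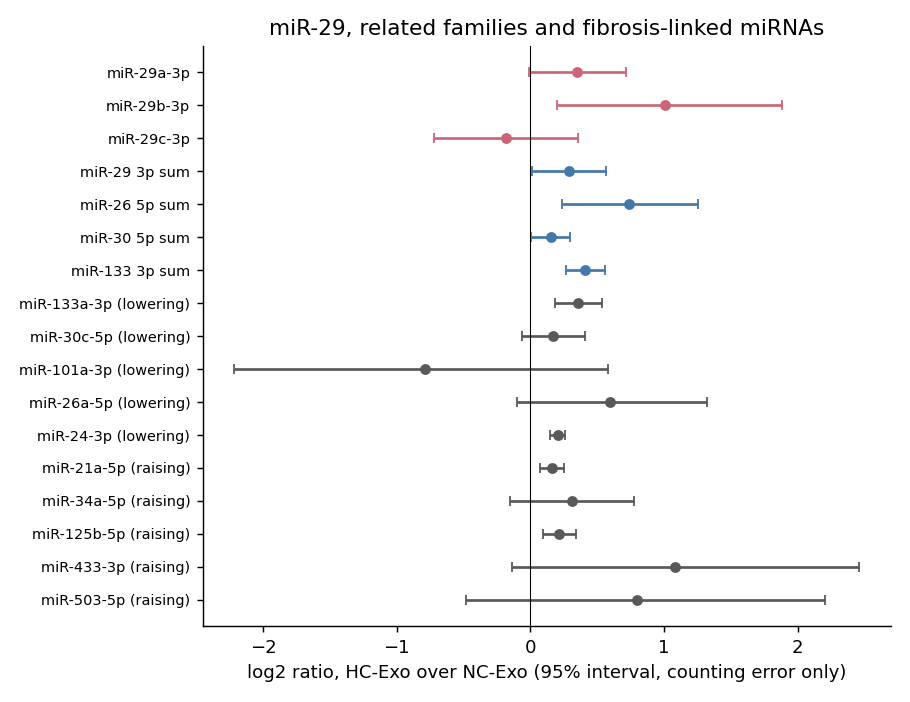
The HC-Exo over NC-Exo log2 ratio (horizontal axis) with 95% intervals for counting error, for the miR-29 3p rows (red), the sums of 4 families (blue) and miRNAs described as lowering or raising fibrosis (grey). The interval of miR-29b-3p, 0.20 to 1.88, lies above 0, those of miR-29a-3p and miR-29c-3p include 0, and the family sums lie between 0.15 and 0.74.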

How the data were processed

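Small RNA libraries of NC-Exo and HC-Exo (1 each) were made and sequenced by the authors, who deposited raw counts per mature miRNA name. All values here were computed from them. The submitters' processing notes name Bowtie2 and the mouse builds mm9 and GRCm38, without their role, and all rows have mouse names although the cells came from rats. The trimming, the mismatches allowed and the counting rule are not given in the sources used here. The authors' normalized values, and their table of scaled counts, fold changes, p-values and q-values, were not used.

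Counts were divided by library totals to give RPM. With 1 library per group edgeR's quasi-likelihood test could not be fitted, so exact binomial and Fisher's tests were used. They were tested on simulated data that held counting error only, with planted changes larger than any miR-29 ratio. Spread between cultures was not simulated. A count of 0 was read as up to 3 reads. The members, lists and tests were chosen with earlier results of these data known. The miRNAs named are the family, its neighbours in rank (2 above and 2 below each 3p row by mean RPM) and the listed miRNAs. Rat sequences came from RefSeq (GRCr8), and all 5 rows matched by name. The alternatives were 4 other scalings, filters, pseudocounts and assumed spreads. Python 3.11.15, scipy 1.17.1, numpy 2.4.6, pandas 2.3.3, R 4.3.3, edgeR 4.0.16 and DESeq2 1.42.0 were used.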

Additional observations from a re-analysis of the deposited data

How the results depend on the processing

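No paired analysis was possible because each condition had only 1 library, which also means that leaving out a replicate was not an option. The other scalings shifted every log2 ratio by -0.12 to -0.03, with the largest shift for upper-quartile scaling, under which 62 rows were called, 24 higher and 38 lower, against 47 higher and 29 lower of 76. Under the alternatives run, no miR-29 log2 ratio changed sign. The scaling shifts were too small to turn any of these signs, and the filters and assumed spreads leave a ratio unchanged by construction. The log2 ratios ran from 0.23 to 0.35 for miR-29a-3p, 0.80 to 1.01 for miR-29b-3p and -0.31 to -0.19 for miR-29c-3p. That of the sum of 3p reads ran from 0.17 to 0.26. With at least 10 reads in each library, miR-29b-3p (log2 ratio 1.01) was called, so that 1 miR-29 row passed instead of 0, with or without a log2 limit of 1, because fewer rows were tested. Without the log2 limit, 28.7% of the 247 rows tested in that setting were called, against 22.4% in the main test. Counting pairs and shares together left the difference of 1.20 between miR-29b-3p and miR-29c-3p short of significance (adjusted p = 0.0752 by Fisher's exact test). The 3p share in HC-Exo was 100% for miR-29a alone, which has no 5p row. Upper-quartile scaling left 0 calls of 5 among the fibrosis-raising miRNAs, 3 of 7 muscle miRNAs instead of 5 and 0 blood miRNAs instead of 1. With an assumed coefficient of variation, edgeR's exact test called 0 of 340 rows, the most abundant ones included.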
